A study of Mus musculus with 16 samples.

Results

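The 9 genes described here encode interleukins and colony-stimulating factors, the secreted proteins by which fibroblasts address leukocytes and their precursors. They are Il6, Il11, Lif, Csf2, Csf3, Il33, Tslp, Il15 and Il7, chosen by symbol from the 56941 genes of the counting table, and 8 of them were among the 16306 genes with enough counts to be tested. Csf2 did not pass the filter on low counts. The cells were primary murine gingival fibroblasts (mGF) grown from gingiva around the maxillary second molar of wild-type C57Bl6 mice aged 3 to 6 months, used between passages 2 and 8. They received, for 24 h, the albumin vehicle (BSA), 1 ng/mL mouse IL-1β, palmitate conjugated to BSA at 200 μM, or both agents together, with 4 libraries per condition. Nothing in the labels says whether the libraries of a condition came from separate cultures or animals, so the p-values below measure only the spread between these libraries.

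Il6, Il11 and Lif signal through receptors that share the gp130 subunit and activate STAT3. Csf2 (GM-CSF) and Csf3 (G-CSF) act on myeloid cells, and G-CSF is the main growth factor of neutrophils. Il33 and Tslp are alarmins of barrier tissue. Il15 and Il7 sustain lymphocytes through receptors that contain the common γ chain, Il15 being presented on the surface of the producing cell by its own receptor Il15ra. IL-1β acts through its receptor on NF-κB and on kinases that stabilize messenger RNA with AU-rich elements, and Il6, Csf2 and Csf3 are classical targets of this route.

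Depth ranged from 21234789 to 92752515 reads assigned to genes, the highest being that of the library labelled palmitate replicate 10 and the next 35329711. The fibroblast identity was checked on 9 markers, all of them detected, whose summed level was 40700 to 52600 CPM. Fn1 and Col1a1 stood highest, at 15700 and 14200 CPM in BSA, and Lum lowest, at group means of 1.12 to 1.91 CPM. Leukocyte markers summed to 2.62 to 4.41 CPM over 9 genes, of which Tyrobp had 0 counts in every library. Mast cell markers summed to 0.191 to 0.266 CPM in BSA and 0.496 to 0.793 CPM in the libraries labelled palmitate + IL-1β, nearly all of it from Kit, with Cpa3 at 0 counts and Tpsb2 and Fcer1a at no more than 2. Kit was called higher in the libraries labelled IL-1β and palmitate + IL-1β, and its part in the results below was not tested. Epithelial markers summed to at most 0.728 CPM with Krt4 at 0. Endothelial markers lay between 1.42 and 2.25 CPM. Since these were bulk samples, fewer cells of a type and less RNA per cell cannot be told apart.

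The single-agent labels were checked on 2 lists, which were chosen with earlier results of these data known. Genes induced by fatty acids through PPAR receptors, such as Angptl4, Pdk4 and Cpt1a, were raised in the libraries labelled IL-1β. Of 14 tested genes of that list, 10 were higher and 1 lower than BSA in the libraries labelled IL-1β, while 2 were higher and 9 lower in those labelled palmitate. Among all tested genes, 10.1% were higher and 4.97% lower in the former, and 19.8% and 17.5% in the latter. Angptl4 stood at 4.44 ± 1.35 CPM in BSA, 100.5 ± 3.40 in libraries labelled IL-1β, 20.7 ± 2.67 in those labelled palmitate and 154 ± 5.90 in those labelled palmitate + IL-1β (SD, n = 4). Cpt1a, the carrier step of mitochondrial fatty acid oxidation, was at 112 ± 2.16, 216 ± 8.05, 82.4 ± 4.03 and 214 ± 7.45 CPM in the same order. Compared directly, libraries labelled palmitate had 0 genes of that list higher and 12 lower than libraries labelled IL-1β. The list of 16 genes that answer IL-1 and NF-κB ran the other way, with 15 higher and 0 lower in libraries labelled palmitate than in those labelled IL-1β. Among all tested genes, 16.5% were higher and 15.2% lower in this direct comparison. Saa3 stood at 0.0835 ± 0.0659, 0.721 ± 0.0762, 23.2 ± 2.24 and 22.9 ± 1.64 CPM. The order of both lists over the single-agent libraries goes against the labels these libraries carry, and the cause was not tested. Conditions are therefore given throughout as the libraries are labelled. Palmitate + IL-1β against BSA sets no single-agent library against another group, and the interaction of the agents has the same value whichever single-agent label a library carries, whereas the remaining comparisons depend on those labels.

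**Figure D1:**
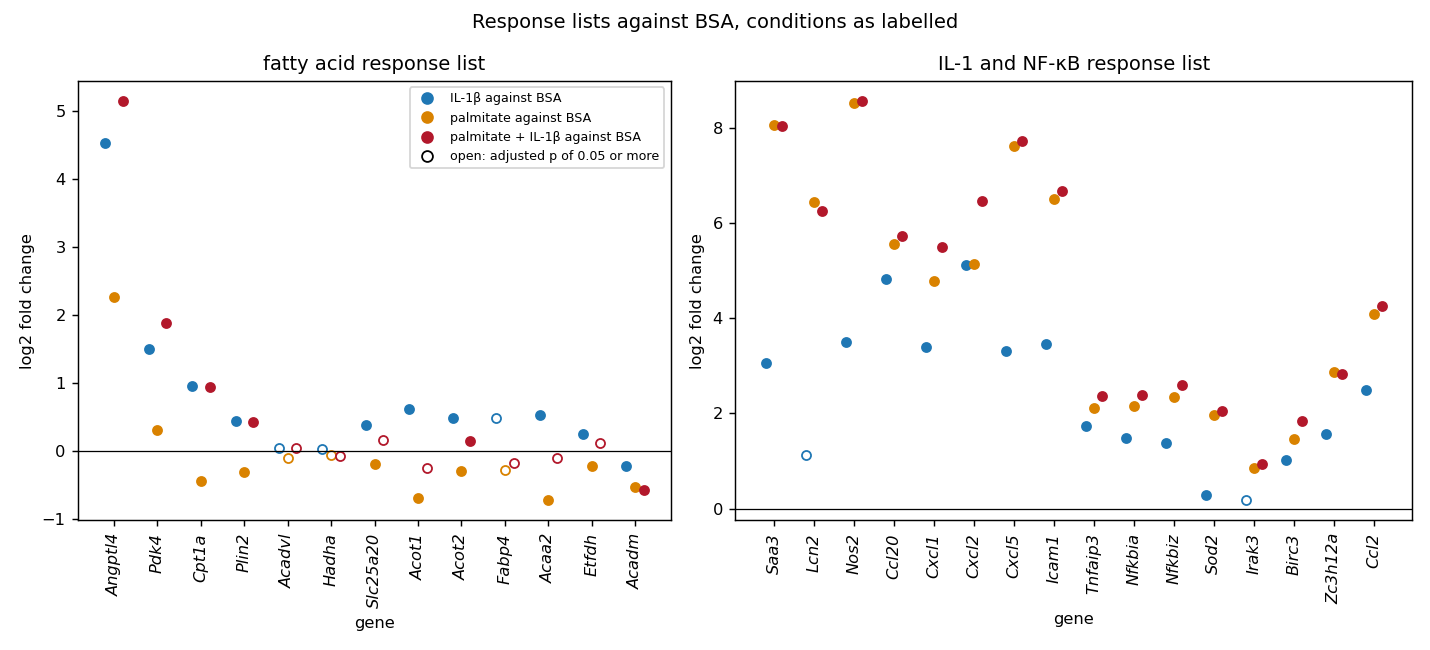
Fitted log2 fold changes against BSA (vertical axes) of the tested genes of the fatty acid response list (left, without 1 that is not reported here) and of the IL-1 and NF-κB response list (right, 16 genes), with a colour for each labelled condition and open circles where the adjusted p was 0.05 or more. On the left the libraries labelled IL-1β lie above those labelled palmitate in every gene shown, and on the right the libraries labelled palmitate lie above or level with those labelled IL-1β.

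Before the levels, the start of 3 genes with matches to the motifs searched is shown, since it is where NF-κB and C/EBP factors could bind. The motifs were GGGNNTTTCC for NF-κB, GAGATTCC for the CK-1 element, TTGCNNAA for C/EBP and TGANTCA for AP-1, and capitals mark every match on either strand. The windows hold the 150 bases before the canonical transcript start in GRCm39, written in the direction of transcription. They are chr5:30217962-30218111 (plus strand) for Il6, chr7:4781141-4781290 (minus strand) for Il11 and chr11:54140494-54140643 (minus strand) for Csf2.
Il6: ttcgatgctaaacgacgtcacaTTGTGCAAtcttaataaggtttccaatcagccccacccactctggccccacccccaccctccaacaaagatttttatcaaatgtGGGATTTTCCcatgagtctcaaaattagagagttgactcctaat
Il11: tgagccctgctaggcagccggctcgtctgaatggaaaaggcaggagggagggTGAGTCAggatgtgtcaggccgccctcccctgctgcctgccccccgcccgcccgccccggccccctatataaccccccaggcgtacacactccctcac
Csf2: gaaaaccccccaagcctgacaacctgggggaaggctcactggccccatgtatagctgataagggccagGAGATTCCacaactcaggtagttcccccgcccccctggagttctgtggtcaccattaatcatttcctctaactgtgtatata

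In Il6 the NF-κB match began 44 bases before the start and the C/EBP match 128 bases before it, and a further AP-1 match lay 249 bases upstream. Csf2 held CK-1 alone, at 82 bases. The AP-1 match of Il11 lay 98 bases upstream, and Lif held a single AP-1 match at 217 bases, outside a 150-base window. No match to the 4 motifs was found in the 250 bases before Il33, Il15 or Il7. Over 12913 promoters of the same length, the NF-κB letters occurred in 1.58%, CK-1 in 0.697%, C/EBP in 8.01% and AP-1 in 4.65%. These are letter matches, not sites of binding.

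The 3′ untranslated regions differed by their content of ATTTA, the core of the AU-rich elements that mark cytokine messages for rapid decay. The densest stretch of 30 bases is given for the members with the most ATTTA per length, with each ATTTA in capitals. They lie at chr11:54138155-54138184 (minus strand) in Csf2, chr5:30224675-30224704 (plus strand) in Il6, chr11:98593810-98593839 (plus strand) in Csf3 and chr7:4776505-4776534 (minus strand) in Il11.
Csf2: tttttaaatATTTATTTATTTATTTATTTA
Il6: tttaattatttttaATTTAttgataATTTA
Csf3: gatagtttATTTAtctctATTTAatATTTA
Il11: ctttaaaaccagatcttATTTATTTATTTA

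Csf2 held 9 ATTTA in 317 bases, a density of 28.4 per kb that 0.0391% of 12794 genes reached. Il6 followed with 14.1 per kb, Csf3 with 8.93 and Il11 with 8.38, against a median of 1.37 per kb over all these genes. The nonamer ATTTATTTA, a stricter form of the element, occurred 5 times in Csf2 and 3 times in Il11, in none of the other members, and in 7.39% of all genes. Il15 at 3.24, Lif at 2.20, Il33 at 2.01 and Il7 at 1.56 ATTTA per kb were nearer to the median.

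In the libraries labelled IL-1β, 3 of the 8 tested members were higher than BSA and 0 lower, where 10.1% of all tested genes were higher and 4.97% lower. In those labelled palmitate, 4 were higher and 1 lower, against 19.8% and 17.5% of all genes. With both agents 6 were higher and 1 lower, against 24.8% and 22.5%. The median log2 fold change of the 8 members was 0.76, 1.21 and 1.37 in these comparisons, while that of all tested genes was close to 0 in each. Under upper-quartile normalization, the share of higher genes among all called genes fell from 67.1% to 43.5%, from 53.1% to 37.1% and from 52.4% to 38.7%, while the members called higher stayed at 3, 4 and 6. Il6, Lif and Il15 rose in each of the 3 comparisons, Csf3 rose and Il33 fell in the last 2, Il11 and Tslp rose in the last alone, and Il7 passed in none.

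**Figure D2:**
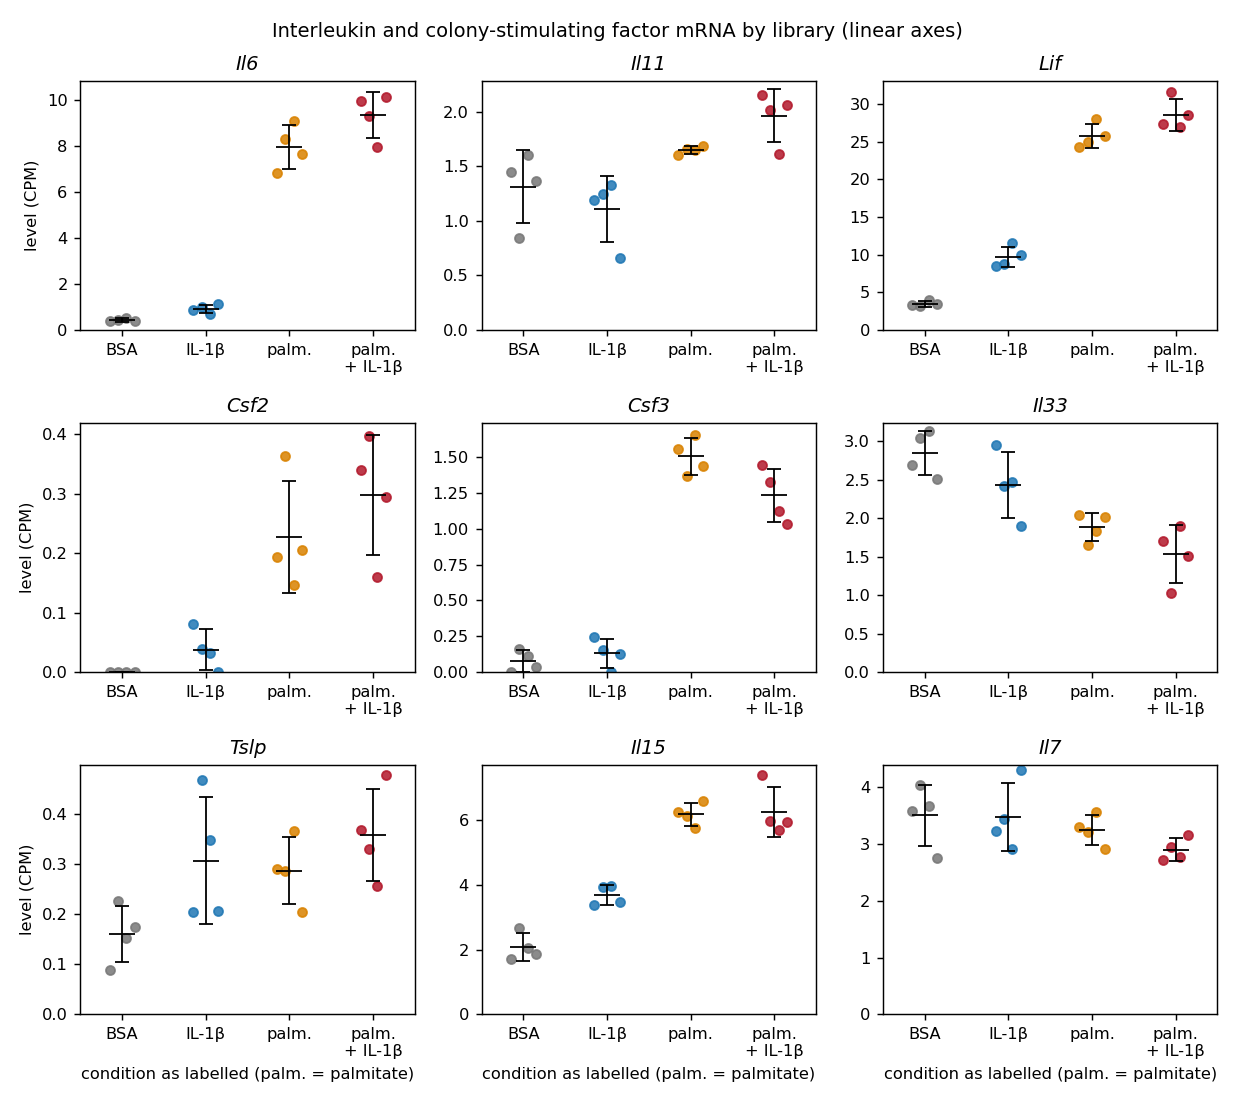
Level of each of the 9 genes in CPM (vertical axes, linear and starting at 0) in the 16 libraries, grouped by labelled condition, with points for libraries and bars for mean ± SD of 4. In Il6, Lif, Csf3 and Il15 every library labelled palmitate or palmitate + IL-1β lies above every other library, and in Il33 every such library lies below the BSA libraries.

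Lif, on chromosome 11 (4207557 to 4222514, GRCm39, plus strand), encodes leukemia inhibitory factor. It was at 3.34, 3.13, 4.01 and 3.46 CPM in BSA and at 8.55, 8.75, 11.6 and 9.98 CPM in the libraries labelled IL-1β. It reached 24.3, 25.0, 28.0 and 25.7 CPM in those labelled palmitate and 27.4, 31.6, 26.9 and 28.5 CPM with both agents. The first 2 conditions each stood clear of all others, while the last 2 overlapped. The log2 fold change against BSA was 1.49 ± 0.10 (SE, edgeR quasi-likelihood test, adjusted p = 1.12e-12) in libraries labelled IL-1β, 2.89 ± 0.093 (adjusted p = 6.06e-22) in those labelled palmitate and 3.04 ± 0.092 (adjusted p = 1e-22) with both. Each change was larger than the spread between replicates. In a fit of BSA and the combination alone, without any single-agent library, the last value was 3.03 (adjusted p = 3.99e-17).

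Il6 (chromosome 5, 30218112 to 30224979, plus strand), the inducer of the acute-phase response, started from a lower level. BSA libraries held 11 to 14 counts of it, equal to 0.384 to 0.534 CPM, and libraries labelled IL-1β 21 to 27 counts, equal to 0.696 to 1.12 CPM. Libraries labelled palmitate held 6.85, 8.30, 9.11 and 7.64 CPM and those with both agents 9.97, 9.33, 7.97 and 10.1 CPM. The latter groups overlapped each other and lay above every library of the former. Against BSA the fold was 2.08 (95% interval 1.48 to 2.93) in libraries labelled IL-1β, 18.3 (14.5 to 23.1) in those labelled palmitate and 21.3 (16.9 to 26.8) with both.

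Il11 (chromosome 7, 4775372 to 4785858, minus strand), a gp130 cytokine tied to fibroblast activation and matrix production, changed far less. Its BSA libraries held 1.45, 0.840, 1.60 and 1.36 CPM, and those labelled IL-1β 1.19, 1.25, 1.33 and 0.663 CPM, with overlap between them. Libraries labelled palmitate held 1.60, 1.65, 1.65 and 1.68 CPM and those with both agents 2.15, 2.02, 1.61 and 2.06 CPM. It rose with both agents by 0.58 on the log2 scale (adjusted p = 0.0152, edgeR), and was at 0.33 (95% interval -0.07 to 0.74) in libraries labelled palmitate. The call with both agents was lost without BSA replicate 2 (adjusted p = 0.0961) and without palmitate + IL-1β replicate 13 (adjusted p = 0.0531).

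Per kb of merged exons, Lif took the largest part of the summed gp130 ligand message in every condition. It made up 48.6% ± 3.44 of Lif, Il6 and Il11 in BSA, 69.6% ± 4.32 in libraries labelled IL-1β, 57.9% ± 1.40 in those labelled palmitate and 56.5% ± 2.81 with both (SD, n = 4). The share of Il6 was 11.7% ± 2.17, 12.8% ± 3.17, 33.9% ± 1.78 and 35.0% ± 2.23, and that of Il11 went from 39.8% ± 5.46 in BSA to 8.54% ± 0.648 with both agents. The sum itself was 1.57 ± 0.241, 3.02 ± 0.286, 9.67 ± 0.723 and 11.0 ± 0.776 CPM per kb. In BSA the message of this family was mainly Lif and Il11, and in the libraries labelled palmitate or both it was mainly Lif and Il6. The order of Lif and Il6 can change with the length used, which was not varied. Merged exons were 2428 bases for Il6 and 4606 for Lif, and their canonical transcripts 1141 and 4026 bases. Canonical lengths would raise Il6 relative to Lif, and by mean CPM would put Il6 above Lif in libraries labelled palmitate or both.

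**Figure D3:**
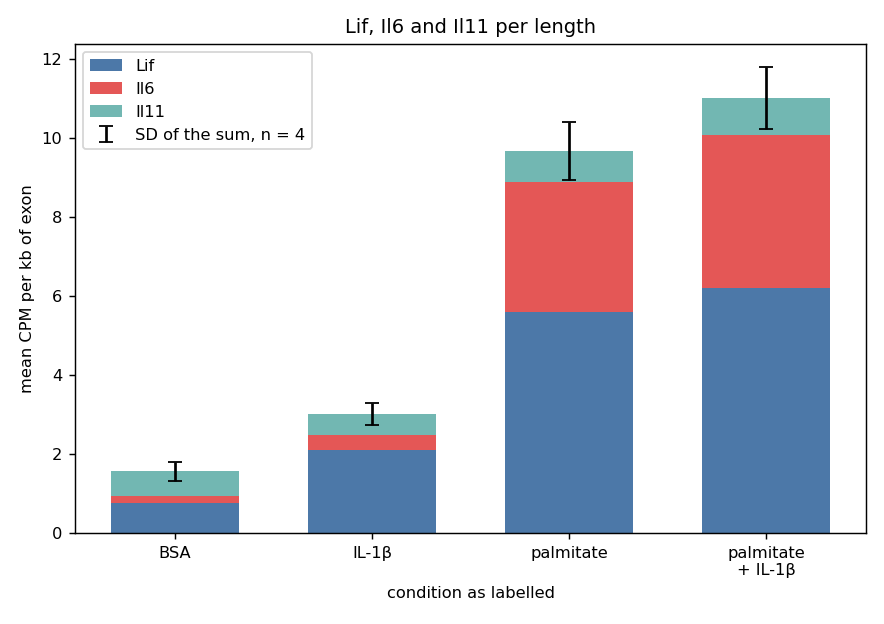
Mean level of Lif, Il6 and Il11 per length (CPM per kb of exon, stacked bars from 0) in the 4 labelled conditions, with error bars for the SD of the sum over 4 libraries. With merged exons as the length, Lif is the largest segment in each bar, and the sum goes from 1.57 in BSA to 11.0 with both agents.

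Csf3 (chromosome 11, 98592089 to 98594458, plus strand) was close to the counting floor in BSA, where the 4 libraries held 0, 5, 3 and 1 counts, and in the libraries labelled IL-1β, which held 6, 4, 0 and 3 counts. It was at 1.55, 1.37, 1.65 and 1.44 CPM in libraries labelled palmitate and 1.44, 1.32, 1.13 and 1.03 CPM with both agents. No library of the first pair of conditions exceeded 6 counts, and none of the second pair held fewer than 28. From the pooled counts the ratio to BSA was 19.2 (95% interval 9.97 to 42.6) in libraries labelled palmitate and 16.5 (8.48 to 36.8) with both. The fitted log2 fold changes were 4.23 ± 0.43 (SE, adjusted p = 1.16e-09, edgeR) and 3.97 ± 0.44 (adjusted p = 5.55e-09), and in the libraries labelled IL-1β 0.69 (95% interval -0.75 to 2.12). The antisense gene Gm38985 shares 626 exon bases with Csf3 and was not among the genes counted.

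Csf2 (chromosome 11, 54138097 to 54140493, minus strand) had 0 counts in all 4 BSA libraries and 2, 1, 1 and 0 counts in those labelled IL-1β. Libraries labelled palmitate held 4, 33, 4 and 5 counts and those with both agents 12, 12, 5 and 8. The 33 counts came from the deepest library, palmitate replicate 10, where they were 0.364 CPM against 0.147 to 0.205 CPM in the other 3. Against a floor of 3 counts over the BSA group, equal to 0.0251 CPM, the mean CPM was at least 9.07-fold higher in libraries labelled palmitate and at least 11.9-fold higher with both. Leaving out each library in turn, an alternative chosen after seeing the data, moved the first of these to between 6.51 and 10.1, being 7.26 without palmitate replicate 10, and the second to between 8.52 and 13.7. Each of these differences reached p = 0.0286 in an exact permutation test of 4 against 4 libraries (two-sided, adjusted p = 0.0429 over 6 comparisons), the smallest p this design allows. For the libraries labelled IL-1β against BSA the exact permutation test gave p = 0.143 (adjusted p = 0.172), which is not resolved at 4 counts in all. The mean CPM in libraries labelled palmitate was 5.97 times that in those labelled IL-1β, and this ratio was 4.78 without palmitate replicate 10 and 9.66 without IL-1β replicate 5. Per length, Csf2 and Csf3 stood at 0.284 ± 0.118 and 1.06 ± 0.0892 CPM per kb in libraries labelled palmitate (SD, n = 4).

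Il33 (chromosome 19, 29902483 to 29938933, plus strand), a nuclear alarmin released by damaged stromal cells, fell in the libraries labelled palmitate and with both agents. It was at 2.69, 3.04, 3.13 and 2.52 CPM in BSA and 2.95, 2.42, 2.47 and 1.91 CPM in libraries labelled IL-1β. Libraries labelled palmitate held 2.04, 1.65, 1.84 and 2.01 CPM and those with both agents 1.70, 1.03, 1.90 and 1.51 CPM. All 8 of the latter lay below every BSA library. The log2 fold change was -0.62 ± 0.17 (SE, adjusted p = 0.0032, edgeR) in libraries labelled palmitate and -0.88 ± 0.17 (adjusted p = 7.45e-05) with both. In libraries labelled IL-1β it was -0.22 (95% interval -0.56 to 0.12) and did not pass the test. The antisense gene Gm41832 shares 159 exon bases with Il33, and counting was by strand.

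Tslp (chromosome 18, 32948436 to 32952850, plus strand), an alarmin of epithelia that instructs dendritic cells, was near the counting floor throughout, at 3 to 7 counts in BSA libraries and 5 to 26 counts in the others. Its mean level was 0.161 ± 0.0569, 0.307 ± 0.127, 0.288 ± 0.0661 and 0.359 ± 0.0924 CPM (SD, n = 4) in BSA and the libraries labelled IL-1β, palmitate and both. Against BSA it rose with both agents, by 1.14 ± 0.42 on the log2 scale (SE, adjusted p = 0.0238, edgeR). That call was lost with DESeq2 (adjusted p = 0.0636), with no filter on low counts (adjusted p = 0.102), and without BSA replicate 1 (0.0991), palmitate + IL-1β replicate 13 (0.0507) or 16 (0.0784). In a fit of BSA and the combination alone, Tslp did not pass the filter on low counts and was not tested. At these counts the order of the treated conditions cannot be read.

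Il15 (chromosome 8, 83054226 to 83129874, minus strand) rose in all treated conditions. It was at 1.72, 2.68, 2.06 and 1.85 CPM in BSA, 3.40, 3.94, 3.96 and 3.48 CPM in libraries labelled IL-1β, 6.27, 6.13, 5.77 and 6.61 CPM in those labelled palmitate and 7.42, 5.99, 5.69 and 5.97 CPM with both agents. As for Lif, BSA and the libraries labelled IL-1β stood clear of each other and of the rest, and the last pair overlapped. The fold against BSA was 1.78 (95% interval 1.46 to 2.17, adjusted p = 5.1e-05), 2.97 (2.48 to 3.57, adjusted p = 1.07e-11) and 3.02 (2.52 to 3.63, adjusted p = 5.45e-12, edgeR). Its presenting receptor Il15ra was at 4.23 ± 0.394, 8.80 ± 1.64, 8.31 ± 0.240 and 12.6 ± 0.459 CPM.

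Il7 (chromosome 3, 7635054 to 7678825, minus strand) passed the test in none of the comparisons. Its means were 3.51 ± 0.538, 3.47 ± 0.598, 3.25 ± 0.266 and 2.90 ± 0.204 CPM, with overlap between all conditions. The log2 fold change with both agents was -0.28 (95% interval -0.56 to -0.00, adjusted p = 0.0933), and it passed under upper-quartile normalization (-0.36, adjusted p = 0.0307) and without BSA replicate 4 (-0.38, adjusted p = 0.0269). The noncoding gene Gm16685 shares 662 exon bases with Il7 on the opposite strand and stood at 1.08 ± 0.0801, 7.29 ± 0.862, 37.6 ± 1.96 and 45.9 ± 2.63 CPM. Reads were counted by strand. In libraries labelled palmitate Gm16685 rose 34.5-fold (95% interval 30.2 to 39.5), while the log2 fold change of Il7 was -0.11 (-0.39 to 0.16).

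Libraries with both agents were also compared with each single agent. Against those labelled IL-1β, 5 of 8 members were higher and 1 lower, where 18.9% and 16.1% of all genes were. Il6 was 10.2-fold higher (95% interval 8.33 to 12.6), Csf3 9.73-fold (5.42 to 17.5), Lif 2.93-fold (2.61 to 3.28), Il11 1.75-fold (1.31 to 2.34) and Il15 1.70-fold (1.43 to 2.01), and Il33 was at 0.632 of the level (0.492 to 0.812). Against those labelled palmitate, 0 members were called in edgeR's quasi-likelihood test and 0 in DESeq2, while 5.71% of all genes were higher and 4.10% lower. At an unadjusted p under 0.05, 2 members passed, Il6 at 1.16-fold (1.01 to 1.35) and Lif at 1.11-fold (1.00 to 1.23). The intervals exclude a change of more than 1.55-fold upward or 0.576 downward for each tested member but Tslp, whose interval ran from 0.739 to 2.05. For Csf2 the ratio from pooled counts was 1.06 (0.668 to 1.67), and it was 1.66 (0.862 to 3.40) without palmitate replicate 10.

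Libraries labelled palmitate exceeded those labelled IL-1β in 5 of 8 members and fell below them in 0, against 16.5% and 15.2% of all genes. The folds were 11.7 for Csf3 (95% interval 6.61 to 20.6), 8.79 for Il6 (7.14 to 10.8), 2.64 for Lif (2.35 to 2.96) and 1.67 for Il15 (1.41 to 1.98). Il11 passed at 1.47-fold (adjusted p = 0.0397, edgeR), a call lost with DESeq2 (adjusted p = 0.0589), with no filter (0.0595) and without IL-1β replicate 5 or 8 or any of palmitate replicates 9 to 12 (0.0535 to 0.169). Il33 was at a log2 difference of -0.40 (adjusted p = 0.0733), which passed without IL-1β replicate 8 (-0.50, adjusted p = 0.0342). Tslp and Il7 did not pass, with log2 differences of -0.11 (-0.88 to 0.67) and -0.09 (-0.37 to 0.19).

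The interaction asks whether the combination equals the product of the single-agent folds. It was called below 0 in 2 of the 8 members and called above 0 in 0, where 1.83% of all genes were called lower and 0.159% higher. The estimate for Il11 was above 0, at 0.47 (95% interval -0.12 to 1.06), and did not pass. For Lif it was -1.34 ± 0.13 (SE, log2, adjusted p = 5.91e-09, edgeR), so that the combination reached 0.395 (95% interval 0.330 to 0.473) of the product, and for Il15 it was -0.81 ± 0.18 (adjusted p = 0.00716), or 0.570 (0.443 to 0.734). The value for Il6, -0.84 (-1.38 to -0.30), did not pass (adjusted p = 0.121).

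**Figure D4:**
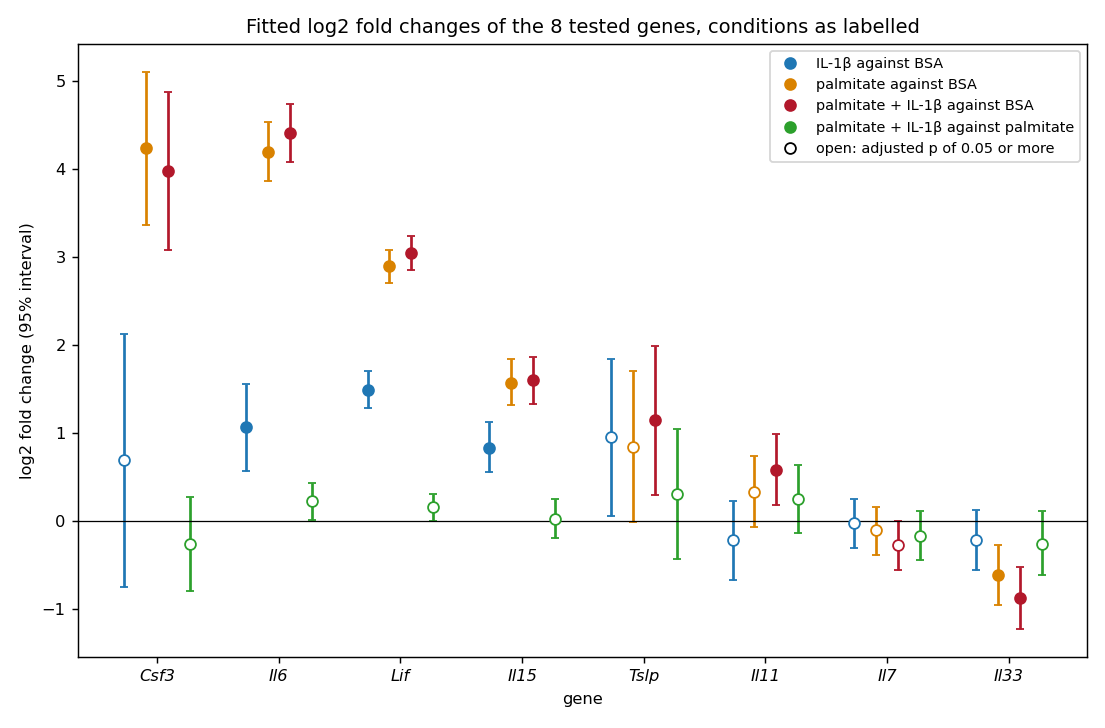
Fitted log2 fold changes with 95% intervals (vertical axis) of the 8 tested genes in 4 comparisons, conditions as labelled, with open circles where the adjusted p was 0.05 or more. Csf3 and Il6 lie near 4 in the libraries labelled palmitate and with both agents, Il33 lies below 0, and all values of both agents against palmitate are open.

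Per kb of merged exons, the order of the members changed between conditions. These ranks hold for this length alone, and no other was tried. Merged exons exceeded the canonical transcript unevenly, at 6180 against 3383 bases in Il33, 2428 against 1141 in Il6 and 2081 against 1949 in Il11. BSA libraries had Lif first at 0.757 ± 0.0807 CPM per kb, then Il11 at 0.631 ± 0.159 and Il7 at 0.619 ± 0.0949. Il33 followed at 0.460 ± 0.0465. The ranges of Il11 and Il7 overlapped with each other, with that of Lif and with that of Il33. Il6 was sixth there, at 0.181 ± 0.0293. In libraries labelled palmitate, Lif at 5.59 ± 0.347 and Il6 at 3.28 ± 0.395 led without overlap, followed by Csf3 at 1.06 ± 0.0892, Il15 at 0.893 ± 0.0506 and Il11 at 0.792 ± 0.0161, again without overlap. With both agents Lif and Il6 also led, while Il11, Il15 and Csf3 overlapped between 0.728 and 1.07 CPM per kb. The sum of the 9 members was 3.12 ± 0.277 CPM per kb in BSA, 4.93 ± 0.224 and 13.0 ± 0.739 in libraries labelled IL-1β and palmitate, and 14.2 ± 1.00 with both.

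The receptors of these factors showed which of them the fibroblasts themselves transcribe. Of 16 receptor genes, 11 were tested, and 6, 8 and 8 were higher and 1 lower in each of the comparisons of libraries labelled IL-1β, palmitate and both with BSA. Of all tested genes, 10.1%, 19.8% and 24.8% were higher and 4.97%, 17.5% and 22.5% lower in these comparisons. Osmr, which pairs with gp130 for oncostatin M, was at 31.3 ± 1.66, 47.7 ± 4.22, 112 ± 3.39 and 116 ± 7.60 CPM, and Lifr, the partner for Lif, at 11.7 ± 1.17, 14.1 ± 0.786, 26.9 ± 1.44 and 28.8 ± 2.33 CPM. Il6st, which encodes gp130 itself, rose by at most 0.24 on the log2 scale from 430.0 ± 23.6 CPM. Il6ra rose by 0.98 in libraries labelled palmitate (adjusted p = 2.15e-10, edgeR), whereas Il11ra1 fell in every condition, by 0.70 with both agents. Il1rl1, the Il33 receptor whose gene also makes a soluble decoy form, went from 469 ± 29.0 CPM in BSA to 1274 ± 31.0 with both agents while Il33 fell. Csf2ra and Crlf2, the Tslp receptor subunit, did not pass in any comparison. Transcripts of Csf2rb, Csf2rb2, Csf3r and Il7r had at most 4 counts in any library. Complete receptors that need these subunits, such as those for Csf2, Csf3 and Il7, were therefore not detectable at this depth.

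**Figure D5:**
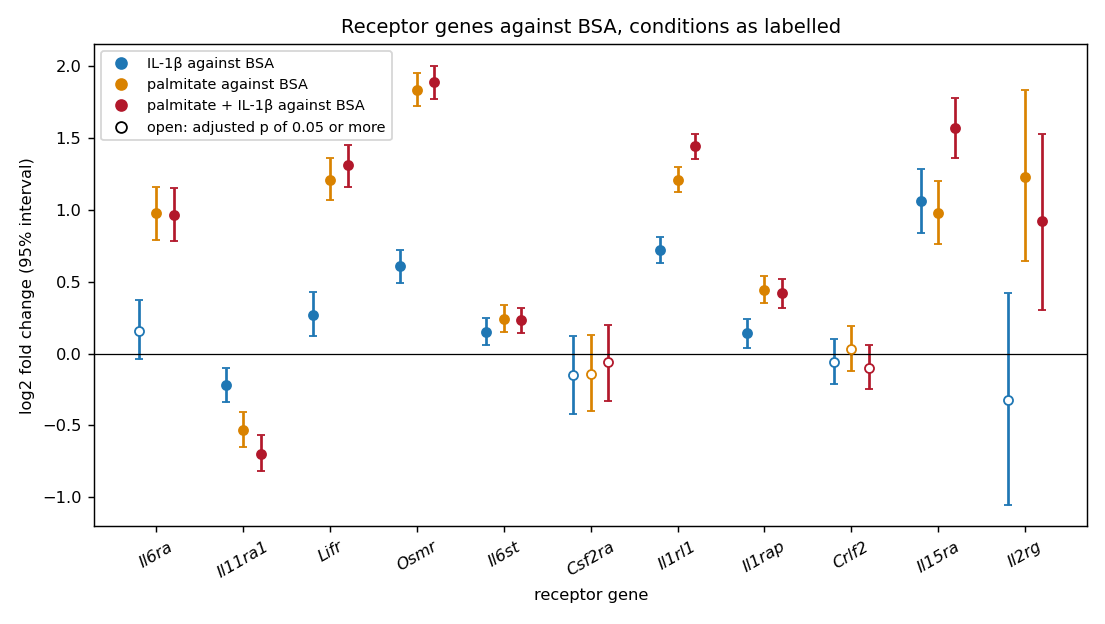
Fitted log2 fold changes against BSA with 95% intervals (vertical axis) of the 11 tested receptor genes in the 3 treated conditions as labelled, with open circles where the adjusted p was 0.05 or more. Osmr, Lifr, Il1rl1, Il15ra and Il6ra lie highest among the well-counted genes, and Il11ra1 lies below 0 in each condition.

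Other ligands were read from 2 further lists. Among 7 other gp130 ligands and partners, 3 were tested and 0 were higher in any comparison with BSA. Ctf1 fell by 0.86 on the log2 scale with both, and Osm had 0 counts in all 16 libraries. Of 33 other interleukins and growth factors of blood cells, 9 were tested, and 3, 6 and 6 were higher and 0 lower in the libraries labelled IL-1β, palmitate and both, against 10.1%, 19.8% and 24.8% higher and 4.97%, 17.5% and 22.5% lower among all tested genes. Csf1, the macrophage growth factor, was at 238 ± 2.92, 612 ± 20.2, 858 ± 2.51 and 1170.0 ± 37.3 CPM, and Kitl, the stem cell factor, at 44.4 ± 3.04, 71.7 ± 1.22, 87.3 ± 5.81 and 139.8 ± 7.69 CPM. Il1rn, the receptor antagonist of IL-1, rose by 1.82 in libraries labelled palmitate, and Il34 by 1.57. Il1b reached at most 1 count in a library and Il1a at most 6. Il12b, known from dendritic cells and macrophages, was at 0.472 ± 0.113 CPM in libraries labelled palmitate against 0.0310 ± 0.0358 in BSA, while summed leukocyte markers were 2.62 to 3.53 and 2.62 to 4.41 CPM in those conditions.

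Factors that act on transcription or decay of these messages, together with the signalling inhibitors Socs1, Socs3 and Cish, formed a list of 15 genes. All of them were tested. Of these, 10, 12 and 14 were higher and 0 lower than BSA in the libraries labelled IL-1β, palmitate and both, where 10.1%, 19.8% and 24.8% of all tested genes were higher and 4.97%, 17.5% and 22.5% lower. Cebpd was at 2.89 ± 0.770, 3.64 ± 0.301, 19.5 ± 1.12 and 16.7 ± 0.787 CPM, and Cebpb at 41.5 ± 0.662, 59.5 ± 4.58, 131 ± 3.57 and 134 ± 6.93 CPM. Nfkbiz, which encodes the NF-κB cofactor IκBζ, rose by 1.37, 2.34 and 2.60 on the log2 scale. Zc3h12a, whose product Regnase-1 degrades Il6 message, rose by 1.57, 2.86 and 2.83, and Arid5a, which protects it, by 0.56, 0.67 and 0.88. Zfp36, which binds ATTTA, did not pass against BSA, with 0.29, -0.12 and 0.03. Socs3, induced by STAT3, was at 4.71 ± 0.445, 4.29 ± 0.756, 20.9 ± 2.27 and 16.3 ± 1.29 CPM, and its value in libraries labelled IL-1β, -0.15 on the log2 scale, did not pass.

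The genes whose log2 CPM followed each member most closely over the 16 libraries were taken by Pearson's r among 11104 genes, as a description over libraries that share 4 conditions. Lif was followed most closely by S1pr3 (r = 0.996), Tnfaip2 (0.995) and Vcam1 (0.994), and Il6 by Gbp9 (0.995), Abcb1a and Herc6 (0.993 each). Csf3 had Spred2 and Bmp6 (0.968 each) and Lcn2 (0.963), and Il15 had Icosl (0.979), Apobec3 (0.975) and A4galt (0.973). For Il33 the closest were Epm2a (0.907), Myorg (0.905) and Stard10 (0.904), and for Il11 Psmd9 (0.906), Npm3 (0.872) and Hspa5 (0.861). Tslp had Mrps30 (0.916), Tmco4 (0.858) and Iars2 (0.807), and Il7 had Nbeal2 (0.794), Slc37a4 (0.791) and Tet2 (0.789). Among the members themselves, Lif correlated at 0.96 with Il6 and with Il15 and at -0.82 with Il33, while r of Il7 with the others lay between -0.70 and 0.35.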

How the data were processed

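RNA of primary murine gingival fibroblasts (mGF) was analysed in 16 libraries, 4 for each labelled condition. The authors used Trimmomatic 0.39 for trimming and STAR 2.7.10a for alignment to GRCm39, and counted them by strand per GENCODE vM33 gene with HTSeq 2.0.9. The deposited values are these raw counts, neither normalized nor filtered. The paper describes oligo(dT)-primed cDNA and the labels a stranded total RNA kit, so which RNA species were captured is not settled here. Reads assigned to no single gene, 18.3% to 21.4% of a library, stayed out of library sizes and tests. Reads with several places were not counted, which lowers genes with near-identical copies.

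Conditions were compared with edgeR 4.0.16 (glmQLFit with robust estimation, glmQLFTest, R 4.3.3) in a single fit of all 16 libraries, after TMM normalization and filterByExpr (minimum count 10, minimum total 15). P-values were adjusted by the Benjamini-Hochberg method over the 16306 genes tested, and a gene was called at an adjusted p under 0.05. Csf2, which did not pass the filter, was compared by an exact permutation test of CPM, two-sided, adjusted over 6 comparisons. The steps were tested on simulated data. Alternatives were other normalizations, no filter, DESeq2 1.42.0, no mitochondrially encoded genes, the compared libraries alone, and each library left out. Levels are CPM with TMM-scaled totals, and levels per length are CPM per kb of merged exons. A level of 3 counts in a library, its counting floor, lay between 0.0331 and 0.146 CPM. Intervals from pooled counts are exact binomial (Clopper-Pearson) and cover counting error alone, because copies made by PCR carried no mark.

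Positions, 5′ windows and 3′ untranslated regions came from GRCm39 with the canonical transcripts of GENCODE vM39. Motifs were searched on both strands over the 250 bases before the transcript start. The genes named are the 9 members, for each tested member the 3 genes with the highest Pearson r of log2 CPM (prior count 2, average log2 CPM of at least 1), and members of fixed lists. Gm16685, which is on no list, was named for its overlap with Il7 after its values were seen. The members and lists were chosen with earlier results of these data known. Some single genes and 1 sequence window are not reported here.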

Additional observations from a re-analysis of the deposited data

Results flagged for a closer look

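The effect of adding one agent differed with and without the other in 2 members, by the interaction term of the edgeR fit. For Lif the log2 interaction was -1.34. For Il15 it was -0.81. Both values treat the single agents alike and so do not depend on which single-agent label a library carries. Both passed in every alternative tried. None of the 36 sets of 4 libraries, 9 members in 4 conditions, held a library far enough from the others to be singled out by Dixon's test.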

How the results depend on the processing

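The 56 log2 fold changes and interactions of the 8 tested members were recomputed under 1216 alternative values. Of these, 1198 kept their side of the threshold, 15 lost the call, 3 gained it and 0 changed sign from a called value. Values called in neither setting were counted as kept whatever their sign, and some of them crossed 0. With a library left out, Il7 in libraries labelled IL-1β against BSA ranged from -0.14 to 0.06. The changed calls were those of Il11, Tslp, Il7 and Il33 given above, and the cause was not tested. Counts of called members and of all called genes stayed within 1.5 times in every alternative. With no filter on low counts and with DESeq2, Csf2 entered the test and was called in libraries labelled palmitate against BSA (adjusted p = 1.11e-06 and 4.28e-05). No paired analysis was possible because the library numbers 1 to 16 are not shared between conditions. Depth limits Csf2, Tslp and Csf3, which had libraries at or under 3 counts.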
